A study of Mus musculus with 9 samples.

Results

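Transcripts of 38 genes for protein folding in the endoplasmic reticulum (ER) and for the unfolded protein response were followed in mouse cardiac endothelium. The genes were taken by symbol from a fixed list, and all 38 were present in a table of 18094 genes. None was lost to the filter on low counts, which left 15277 genes to test. Endothelial cells had been pulled from fresh heart tissue with magnetic microbeads, and polyA RNA was sequenced in 9 libraries. There were 3 libraries each from BPN/3J at 22 weeks, BPH/2J at 4 weeks and BPH/2J at 22 weeks. BPH/2J is an inbred mouse line with high blood pressure, and BPN/3J is its normotensive companion line, so every group was a whole inbred line with no added agent or allele. BPN/3J at 4 weeks was not analysed here. The labels did not say whether the libraries of a group came from separate animals, and p-values therefore measured the spread between these libraries.

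The ER folds secreted and membrane proteins, and endothelial cells send large amounts of basement membrane and coagulation proteins through it. When unfolded proteins build up, 3 sensors in the ER membrane respond: ATF6 is cut into a transcription factor, IRE1 (encoded by Ern1) splices the Xbp1 message, and PERK (encoded by Eif2ak3) slows translation while favouring that of ATF4. These factors raise transcription of chaperones, folding enzymes and parts of the degradation machinery. The sensors themselves are switched on as proteins, so their transcript levels do not report their activity. Counts per gene do not separate the spliced form of Xbp1 from the unspliced one.

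Each library held between 28806840 and 32913813 counts. A gene with no reads could still lie at up to 3 counts (95% limit, counting error only), which is 0.0911 to 0.104 CPM (counts scaled to the library total). All 15 endothelial markers were measured, with a summed level of 16100 to 19100 CPM per library. Replicate 1 of 4-week BPH/2J stood apart from the other libraries of its group. It held 2.63% mitochondrial counts against 1.19% and 1.33%. It was the lowest of its group for 27 of the 38 genes (71.1%), against 40.4% of all tested genes, and the highest for 9 (23.7% against 42.6%). The same library was the lowest of its group for 15 of 21 cytosolic heat shock genes and 13 of 16 macrophage markers. It was the highest for 20 of 21 immediate early genes, 16 of 20 cardiomyocyte markers and 12 of 14 fibroblast markers. Counts of called genes are therefore given with and without it.

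The 38 genes were, as a list, most abundant in 4-week BPH/2J endothelium. The 4-week BPH/2J group had the highest mean for 28 of the 38 genes (73.7%, against 35.4% of all tested genes). The 22-week BPH/2J group had the lowest mean for 19 (against 26.8% of all tested genes). The summed level of the list was 5174, 5297 and 5088 CPM in 22-week BPN/3J (replicates 1, 2 and 3, the order used throughout), 5699, 8221 and 7731 CPM in 4-week BPH/2J and 4727, 4863 and 4842 CPM in 22-week BPH/2J. Every 4-week library lay above every 22-week library, and 4-week replicate 1 was the closest to the older mice. CPM values carry the scaling by trimmed mean of M values (TMM). In bulk RNA, fewer cells of a type and less RNA per cell cannot be told apart.

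**Figure D1:**
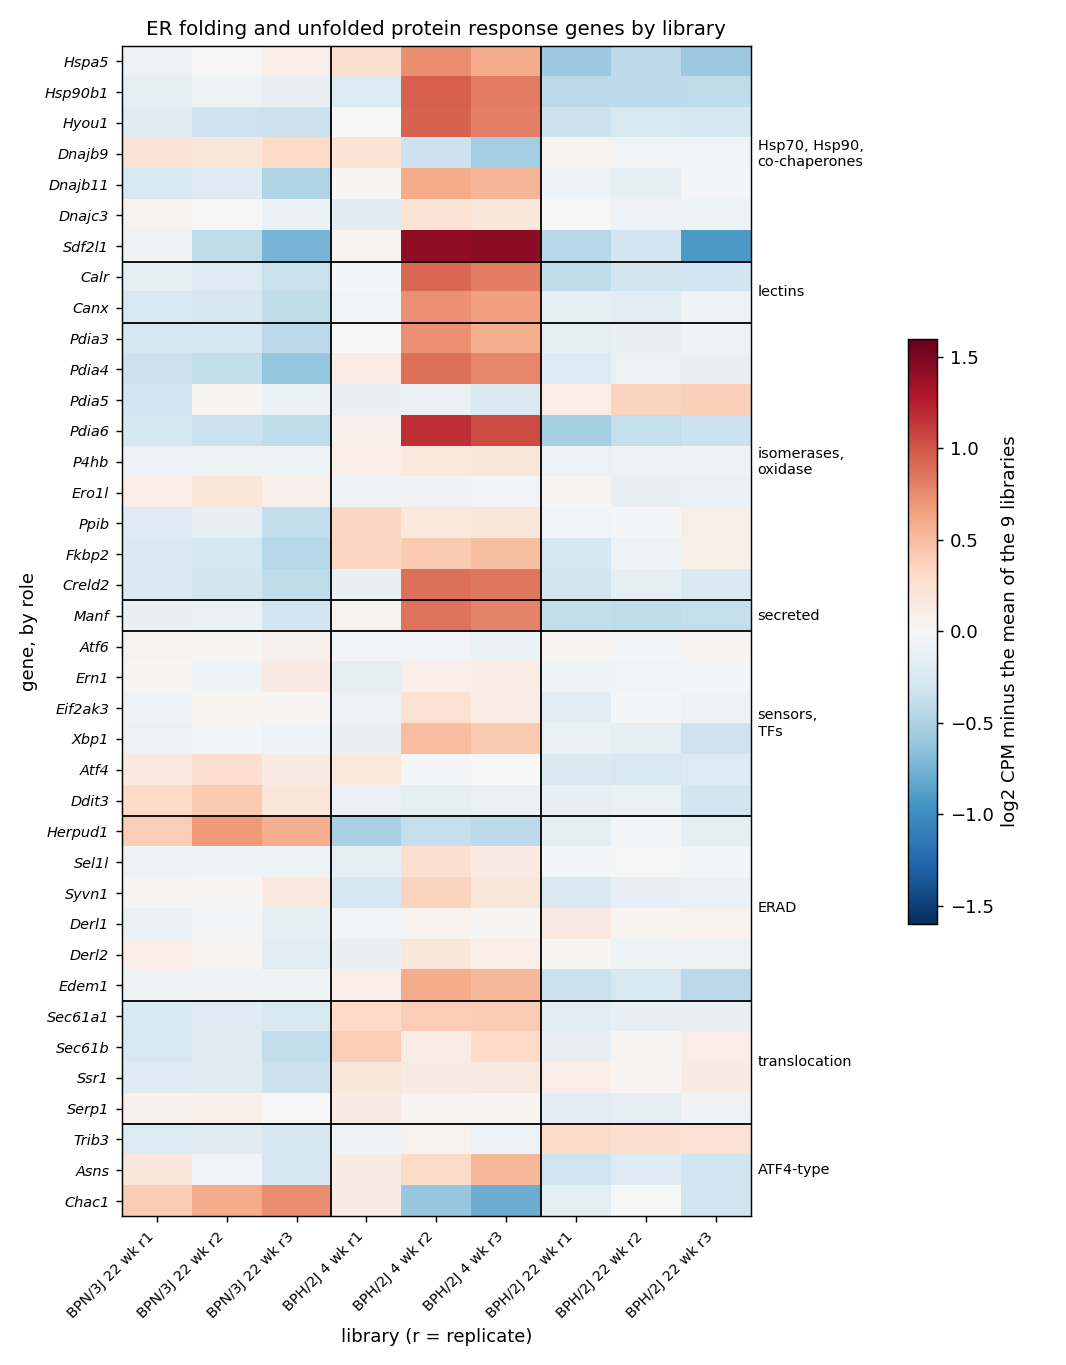
Each row is a gene, grouped by role, and each column is a library. Colour is the log2 of CPM minus the mean of the 9 libraries for that gene, from blue (lower) to red (higher). Replicates 2 and 3 of 4-week BPH/2J carry most of the strong red, and replicate 1 of that group is the lowest of the 3 for 27 of 38 genes.

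With age in BPH/2J (22 weeks against 4 weeks), 22 of the 38 genes fell and 3 rose in edgeR's quasi-likelihood test at a Benjamini-Hochberg adjusted p of 0.05. The other 13 did not pass. Over all tested genes, 21.1% were called lower and 19.9% higher in this comparison. The median log2 difference was -0.27 over the 38 genes and 0.0050 over all genes. Without 4-week replicate 1, 24 fell and 5 rose, with 23.6% of all genes called lower and 23.8% higher. The largest falls were in Sdf2l1, Pdia6, Hspa5, Hsp90b1 and Manf, and the rises were in Pdia5, Herpud1 and Trib3. At the same threshold of 0.05, the call held under every alternative setting run for 17 of the 22 falls and for all 3 rises. At an adjusted p of 0.01, Canx (adjusted p = 0.0105) and Pdia3 (adjusted p = 0.0116), both among the 17, did not pass.

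Between the strains at 22 weeks, where only the strain differs, the list split. Trib3, Pdia5, Ssr1, Sec61b, Ppib and Derl1 were higher in BPH/2J, and Chac1, Herpud1, Hspa5, Ddit3, Atf4, Ero1l and Serp1 were lower. That made 6 higher and 7 lower of 38, beside 19.8% of all genes called higher and 18.2% called lower, so the shares of members called were close to those of all genes. The median log2 difference was -0.057, against 0.024 over all genes. A fit without 4-week replicate 1, which is not in this contrast but enters the shared estimate of spread, called 10 higher and 12 lower (23.9% and 21.8% of all genes). The 9 genes gained were Dnajb11, Canx, Pdia3 and Pdia4 (higher) and Hsp90b1, Dnajb9, Manf, Syvn1 and Edem1 (lower). All of them but Canx were also called when the fit held only the 2 groups compared, which gave 12 lower. Leaving out a library of the contrast moved the counts too. The number higher was 3 without BPN/3J replicate 1, 3 without BPN/3J replicate 3 and 2 without 22-week BPH/2J replicate 3, and the number lower was 4 without BPN/3J replicate 2. Ssr1 and Trib3 among the higher genes, and Hspa5, Atf4, Ddit3 and Herpud1 among the lower, were called under every alternative.

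In the comparison of 4-week BPH/2J with 22-week BPN/3J, strain and age differ together and cannot be told apart. Here 22 of the 38 genes were higher in 4-week BPH/2J and 5 were lower, beside 27.8% of all genes called higher and 25.3% called lower. The median log2 difference was 0.36, against 0.0015 over all genes. In the fit without 4-week replicate 1, 26 were higher and 6 lower (28.7% and 27.0% of all genes). The number lower was 3 without BPN/3J replicate 2 and 3 without 4-week replicate 2. This comparison shares its 4-week libraries with the age comparison and its BPN/3J libraries with the strain comparison, so the 3 sets of values are set side by side and are not independent.

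**Figure D2:**
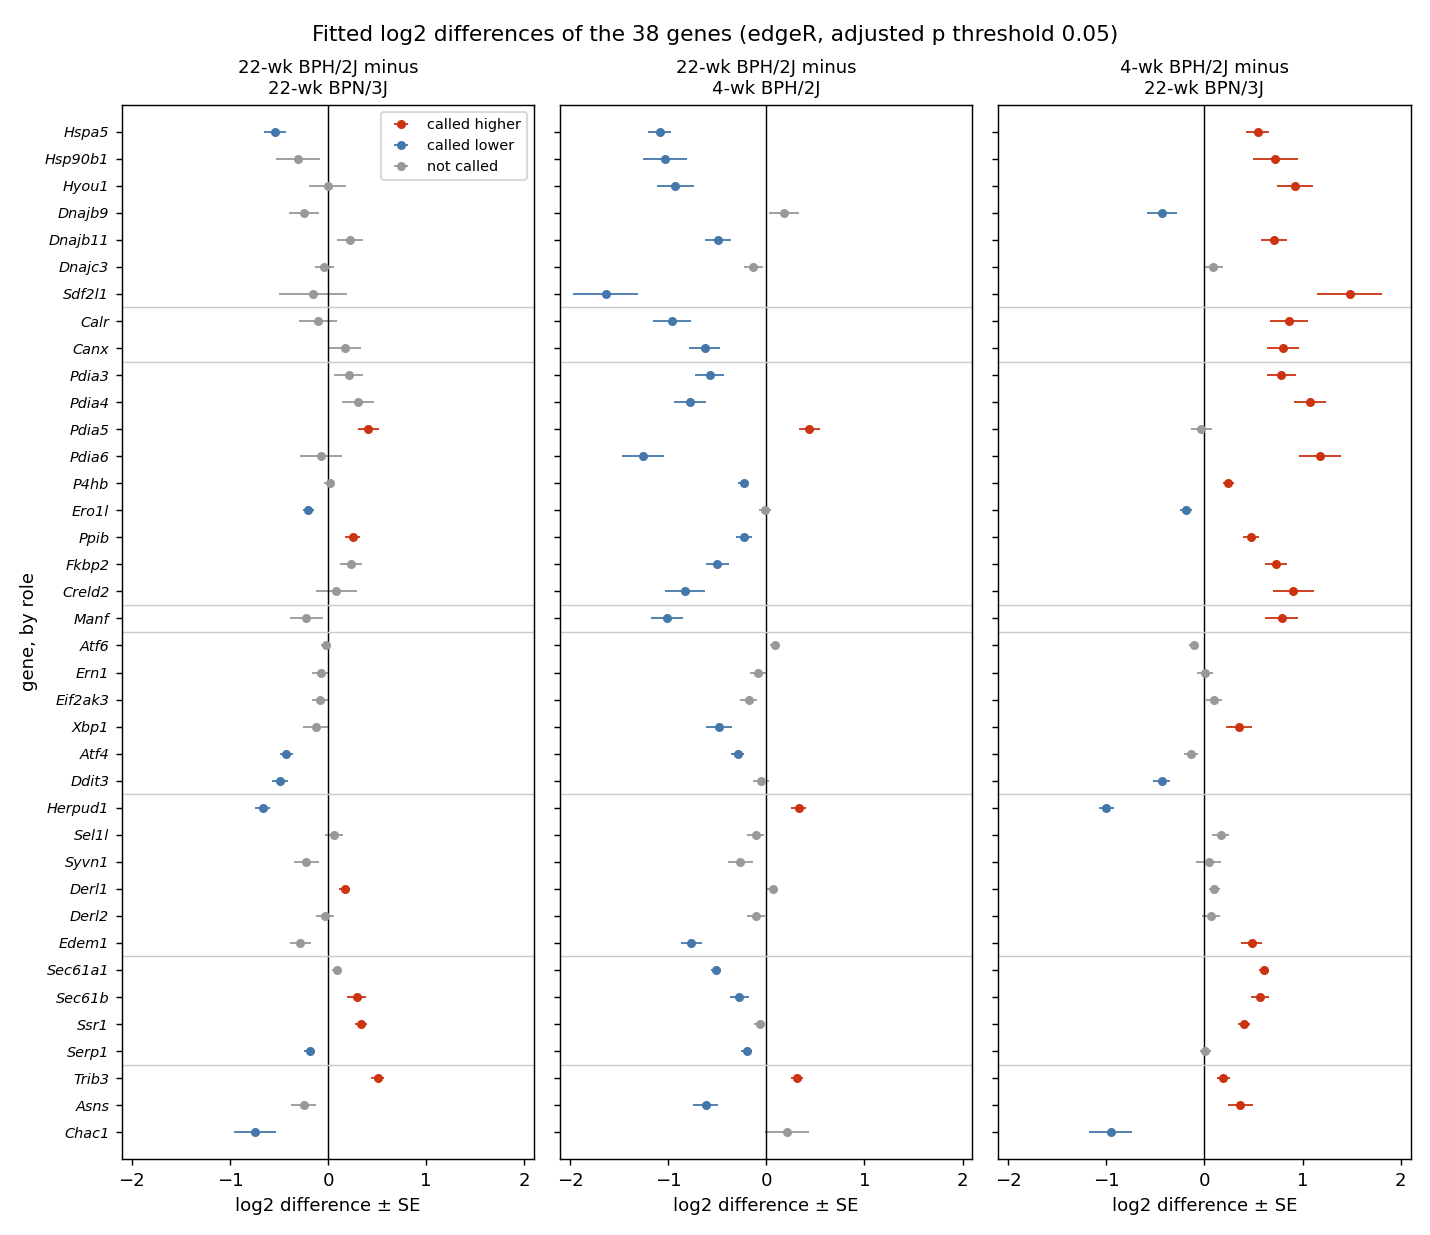
Points are fitted log2 differences and bars their standard errors, with 1 row per gene and 1 panel per comparison, from the fit on all 9 libraries. Red marks genes called higher, blue genes called lower and grey genes that did not pass an adjusted p of 0.05. In the age panel 22 genes are blue and 3 are red, and in the strain panel 7 are blue and 6 are red.

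Several of these genes carry, upstream of their start, an ER stress response element (ERSE). This element is known to bind ATF6 together with NF-Y and is written here as CCAAT, then 9 bases of any kind, then CCACG. Promoter windows of 250 bases before to 50 bases after the gene start were available from RefSeq (build GRCm38.p6) for 33 of the 38 genes. Hyou1, Manf, Atf6, Derl1 and Sec61a1 were not matched, and Ero1l was matched under its later symbol. On either strand, ERSE was found in 8 of the 33 (24.2%) and in 39 of all 32851 windows (0.119%). A member counted if any of its windows held the element, and 2 members had several windows. A shorter form, ERSE-II (ATTGG, then 1 base of any kind, then CCACG), was found in Dnajb11 and Herpud1 and in 12 windows in all (0.037%). For the XBP1-type element UPRE only a fixed pattern of 8 bases was searched, and for the ATF4-type element CARE a fixed pattern of 9 bases. Among the 33, there was no match to the UPRE pattern (0.676% of all windows) or to the CARE pattern (0.965%). Variant forms and sites outside the windows were not searched. The lack of a match therefore does not show that a gene, such as an ATF4 target, has no such element. No elements overlapped. The stretches below show the elements that lie before the gene start. The ERSE-II of Dnajb11, at bases 8 to 18 after the start, is not among them. All are 5′ to 3′ on the gene's own strand, from RefSeq, with the element in capitals. Coordinates are those of GRCm38.p6 and not of the build of the counts, mm9.
Hspa5 (chr2:34771940-34772089, plus strand): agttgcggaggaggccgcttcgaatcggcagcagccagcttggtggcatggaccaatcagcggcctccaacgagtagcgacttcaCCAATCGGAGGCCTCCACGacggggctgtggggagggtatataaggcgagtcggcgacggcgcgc
Hsp90b1, upstream copy (chr10:86705618-86705676, minus strand): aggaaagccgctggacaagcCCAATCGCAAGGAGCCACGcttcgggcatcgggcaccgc
Hsp90b1, downstream copy on the other strand (chr10:86705513-86705571, minus strand): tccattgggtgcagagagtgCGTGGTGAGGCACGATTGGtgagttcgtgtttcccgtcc
Dnajc3 (chr14:118937807-118937865, plus strand): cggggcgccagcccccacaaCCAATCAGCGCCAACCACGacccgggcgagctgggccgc
Calr, element on the other strand (chr8:84847055-84847113, minus strand): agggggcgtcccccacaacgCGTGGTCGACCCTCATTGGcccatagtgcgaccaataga
Canx (chr11:50325780-50325838, minus strand): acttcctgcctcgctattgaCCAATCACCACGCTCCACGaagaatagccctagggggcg
Pdia6 (chr12:17266471-17266529, plus strand): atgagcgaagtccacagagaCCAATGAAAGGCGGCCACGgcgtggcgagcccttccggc
Creld2, element on the other strand (chr15:88819500-88819558, plus strand): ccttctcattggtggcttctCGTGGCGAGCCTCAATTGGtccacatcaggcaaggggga
Syvn1 (chr19:6046512-6046570, plus strand): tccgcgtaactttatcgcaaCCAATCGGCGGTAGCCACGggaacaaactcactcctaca
Herpud1, ERSE-II (chr8:94386357-94386407, plus strand): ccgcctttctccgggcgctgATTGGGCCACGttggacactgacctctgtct

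The 8 ERSE genes fell or did not pass with age: 6 fell, and Dnajc3 and Syvn1 did not pass. The same 6 (Hspa5, Hsp90b1, Calr, Canx, Pdia6 and Creld2) were higher in 4-week BPH/2J than in 22-week BPN/3J, which uses the same 4-week libraries. Over all tested genes, 21.1% were called lower with age and 27.8% higher in 4-week BPH/2J than in BPN/3J. Of the 38 genes, 22 fell with age and 22 were higher in the latter comparison. These calls were therefore not particular to the ERSE genes. Sdf2l1 (-1.64) and Pdia4 (-0.77), whose windows held no ERSE, also fell with age. Between the strains at 22 weeks only Hspa5 of the 8 was called, and it was lower in BPH/2J, beside 18.2% of all genes. Without 4-week replicate 1, all 8 fell with age and all 8 were higher in 4-week BPH/2J than in 22-week BPN/3J. Of the 38 genes, 24 fell and 26 were higher there, beside 23.6% and 28.7% of all genes. In that fit, between the strains at 22 weeks, Canx was higher and Hspa5, Hsp90b1 and Syvn1 lower in BPH/2J (23.9% and 21.8% of all genes). The ERSE-II genes went separate ways with age in both fits, Dnajb11 falling and Herpud1 rising. Letters that match an element describe the sequence and do not show that a factor binds there.

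Chaperones of the Hsp70 and Hsp90 type and their partners made up 7 of the genes. With age 5 of the 7 fell and none rose, and against BPN/3J the young mice had 5 higher and 1 lower (6 fell and 1 rose, and 6 higher and 1 lower, without 4-week replicate 1). Hspa5 encodes BiP, the Hsp70 of the ER lumen, which also holds the sensors inactive. Its level was 716, 761 and 819 CPM in 22-week BPN/3J, 916, 1276 and 1151 CPM in 4-week BPH/2J and 504, 568 and 506 CPM in 22-week BPH/2J. The groups did not overlap, and the order was 4-week BPH/2J, BPN/3J, 22-week BPH/2J. Hspa5 fell with age by 2.12-fold, a log2 difference of -1.08 ± 0.12 (adjusted p = 6.67e-05). At 22 weeks it was 1.46-fold lower in BPH/2J than in BPN/3J, with a log2 difference of -0.54 ± 0.12 (adjusted p = 0.00439). Both calls held under every alternative run. The age difference was -1.20 without 4-week replicate 1.

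Hsp90b1, the Hsp90 of the ER (GRP94), was at 349, 367 and 353 CPM in 22-week BPN/3J, 332, 749 and 687 CPM in 4-week BPH/2J and 287, 287 and 290.2 CPM in 22-week BPH/2J. Replicate 1 of the 4-week group lay below all 3 BPN/3J libraries, while replicates 2 and 3 were well above them. The fall with age was -1.03 ± 0.23 (adjusted p = 0.0049), and -1.31 without that replicate. In 22-week BPH/2J every library was below every BPN/3J library, at 288 ± 1.71 against 357 ± 9.73 CPM (SD, n = 3), but the difference of -0.31 ± 0.23 had an adjusted p of 0.307. Without 4-week replicate 1, with its contribution to the pooled spread gone, the strain difference of Hsp90b1 was -0.30 ± 0.05 (adjusted p = 0.00107). Against BPN/3J the 4-week level was higher by 0.72 ± 0.23, a call lost without 4-week replicate 2 (0.52), 4-week replicate 3 (0.60), BPN/3J replicate 1 (0.71) or BPN/3J replicate 3 (0.72).

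Hyou1, a nucleotide exchange factor for BiP, stood at 77.7, 71.1 and 70.4 CPM in 22-week BPN/3J, 88.9, 171 and 155 CPM in 4-week BPH/2J and 70.5, 74.8 and 73.3 CPM in 22-week BPH/2J. Both 22-week groups overlapped, with a strain difference of -0.0038 ± 0.19, and the 4-week libraries were all higher. It fell with age by -0.93 ± 0.19 (adjusted p = 0.00291), or -1.16 without 4-week replicate 1. Sdf2l1, which works with the co-chaperone ERdj3, had the largest age difference of the list. It was at 6.35, 5.04 and 4.00 CPM in 22-week BPN/3J, 6.98, 17.9 and 18.1 CPM in 4-week BPH/2J and 4.86, 5.41 and 3.54 CPM in 22-week BPH/2J. The 22-week groups overlapped, the lowest 4-week library (replicate 1) lay just above them, and the other two were far above it. The fold was 3.11 with age, a log2 difference of -1.64 ± 0.33 (adjusted p = 0.00303), and -1.96 without replicate 1.

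The J-domain partners of BiP did not move as a set. Dnajb11, which encodes ERdj3, fell with age by -0.49 ± 0.13 (adjusted p = 0.0137), a call lost without 4-week replicate 2 (-0.39) or 3 (-0.41), and it was 0.71 ± 0.13 higher in 4-week BPH/2J than in BPN/3J. Dnajb9, which encodes ERdj4, went the other way. Its levels were 111, 109 and 119.8 CPM in 22-week BPN/3J, 112, 75.6 and 65.5 CPM in 4-week BPH/2J and 99.6, 93.6 and 93.4 CPM in 22-week BPH/2J. Replicates 2 and 3 of the 4-week group were the lowest of all libraries and replicate 1 was among the highest. Dnajb9 was lower in 4-week BPH/2J than in BPN/3J (-0.43 ± 0.15 (adjusted p = 0.0362)), but the call was lost without any 1 of the 3 BPN/3J libraries (-0.46 to -0.39) or without 4-week replicate 2 (-0.36) or 3 (-0.28), and in a fit on only the groups compared (-0.43). Without replicate 1 it was called in each comparison, at -0.69 here, 0.44 with age and -0.24 between the strains. Dnajc3, which encodes p58IPK, an inhibitor of PERK, passed in no comparison. Without 4-week replicate 1 it was called lower with age (-0.25) and higher at 4 weeks than in BPN/3J (0.21).

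The lectin chaperones calreticulin and calnexin hold newly made glycoproteins until they fold. Calr was at 495, 475 and 430.0 CPM in 22-week BPN/3J, 537, 1038 and 969.7 CPM in 4-week BPH/2J and 412, 449 and 443 CPM in 22-week BPH/2J. All 4-week libraries were the highest, although replicate 1 was closer to the 22-week libraries than to the other two. It fell with age by -0.96 ± 0.19 (adjusted p = 0.00296), or -1.20 without replicate 1, and differed between the strains by -0.10 ± 0.19 (adjusted p = 0.701). Canx was at 264, 263 and 238 CPM in 22-week BPN/3J, 307, 527 and 498 CPM in 4-week BPH/2J and 284, 280.2 and 299 CPM in 22-week BPH/2J. Its fall with age was -0.63 ± 0.16 (adjusted p = 0.0105), or -0.83 without replicate 1. Each 22-week BPH/2J library was above each BPN/3J library, and the strain difference of 0.17 ± 0.16 passed in the fit without 4-week replicate 1 (0.18 ± 0.06 (adjusted p = 0.0303)).

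Protein disulfide isomerases form and shuffle the disulfide bonds of secreted proteins. Of the 9 isomerases, oxidase and related enzymes, 7 fell with age and 1 rose (6 and 1 without 4-week replicate 1). Over all genes, 21.1% were called lower and 19.9% higher with age (23.6% and 23.8% without that replicate). Pdia6 showed the largest change, at 124, 118 and 114 CPM in 22-week BPN/3J, 159, 337 and 309 CPM in 4-week BPH/2J and 104, 116 and 118 CPM in 22-week BPH/2J. It was 2.38-fold lower at 22 weeks than at 4 weeks, a log2 difference of -1.25 ± 0.21 (adjusted p = 0.00119), and -1.52 without 4-week replicate 1. Both 22-week groups overlapped. Pdia4 was at 71.8, 69.7 and 59.4 CPM in 22-week BPN/3J, 98.95, 169 and 157 CPM in 4-week BPH/2J and 78.5, 85.95 and 84.03 CPM in 22-week BPH/2J. All 3 groups were separate, with BPN/3J lowest, and the fall with age was -0.77 ± 0.16 (adjusted p = 0.00378), or -0.97 without replicate 1. Its strain difference of 0.31 ± 0.16 had an adjusted p of 0.165, and was 0.31 ± 0.07 (adjusted p = 0.00603) in the fit without that library.

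Pdia3, the isomerase that works with the lectins, was at 442, 448 and 403 CPM in 22-week BPN/3J, 534, 891 and 804 CPM in 4-week BPH/2J and 481, 495 and 519 CPM in 22-week BPH/2J. It was the highest of the list per length in 22-week BPH/2J, at 159 ± 5.97 CPM per kilobase, beside 151 ± 6.93 for Calr and 149.7 ± 10.4 for Hspa5, with overlapping intervals of 1 SD. In 4-week BPH/2J Hspa5 led with 317 ± 52.1 CPM per kilobase, followed by Calr (295 ± 94.3) and Pdia3 (237 ± 59.2), again with overlapping intervals. In BPN/3J Hspa5 also led, with 218 ± 14.8 CPM per kilobase, ahead of Calr (162 ± 11.6) and Atf4 (159 ± 7.83). Pdia3 fell with age by -0.58 ± 0.15 (adjusted p = 0.0116), or -0.76 without 4-week replicate 1, and like Canx it was called between the strains in the fit without that library (0.21 ± 0.06 (adjusted p = 0.0197)).

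P4hb, which encodes protein disulfide isomerase itself and a subunit of collagen prolyl 4-hydroxylase, differed by less. Its levels were 410.3, 415 and 416 CPM in 22-week BPN/3J, 474, 493 and 504 CPM in 4-week BPH/2J and 412, 419 and 424 CPM in 22-week BPH/2J. The 4-week libraries were above the rest by a small margin that was tight across replicates, and it fell with age by -0.23 ± 0.06 (adjusted p = 0.00797). Pdia5 was the isomerase that rose, at 12.96, 16.4 and 14.9 CPM in 22-week BPN/3J, 14.7, 14.9 and 13.7 CPM in 4-week BPH/2J and 17.2, 20.6 and 20.97 CPM in 22-week BPH/2J. The 22-week BPH/2J libraries were all above the others, and the other 2 groups overlapped. It was higher by 0.44 ± 0.11 (adjusted p = 0.00819) against 4 weeks and by 0.41 ± 0.11 (adjusted p = 0.013) against BPN/3J. The strain call was lost without 22-week BPH/2J replicate 3, at 0.36 (adjusted p = 0.0519).

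Ero1l, the oxidase that recharges the isomerases, was at 76.6, 81.4 and 75.2 CPM in 22-week BPN/3J, 67.2, 68.5 and 69.1 CPM in 4-week BPH/2J and 71.96, 65.2 and 65.8 CPM in 22-week BPH/2J. It was lower in BPH/2J than in BPN/3J at 22 weeks (-0.20 ± 0.06) and at 4 weeks (-0.19 ± 0.06), with adjusted p values of 0.0207 and 0.0195. The strain call was lost without BPN/3J replicate 2 (-0.16) or 22-week BPH/2J replicate 2 (-0.17) or 3 (-0.17), and the other without BPN/3J replicate 2 (-0.15) or 4-week replicate 2 (-0.19). The proline isomerase Ppib (cyclophilin B), which acts on collagen, was at 61.2, 64.5 and 53.9 CPM in 22-week BPN/3J, 89.9, 79.8 and 80.2 CPM in 4-week BPH/2J and 68.7, 69.9 and 75.2 CPM in 22-week BPH/2J. Here 4-week replicate 1 was the highest of all libraries, and the groups were separate. Ppib was higher in BPH/2J at 22 weeks (0.25 ± 0.08 (adjusted p = 0.0279)), a call lost without BPN/3J replicate 1 (0.27) or 3 (0.18) or 22-week BPH/2J replicate 3 (0.22). Its fall with age, -0.22 ± 0.08 (adjusted p = 0.0399), was lost without 4-week replicate 1 (-0.16) or 3 (-0.25) or any 1 of the 3 22-week BPH/2J libraries (-0.26 to -0.19). It was also lost with upper-quartile scaling (-0.20) and with no filter on low counts (-0.22).

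Fkbp2, another proline isomerase, fell with age from 14.3 ± 0.705 to 10.1 ± 1.31 CPM (-0.50 ± 0.11 (adjusted p = 0.00575)). Creld2, an ER protein known to be induced by ER stress, was at 29.03, 27.7 and 25.7 CPM in 22-week BPN/3J, 31.2, 62.4 and 61.1 CPM in 4-week BPH/2J and 27.7, 30.6 and 28.9 CPM in 22-week BPH/2J. Replicate 1 of the 4-week group was again near the 22-week libraries and the other two were well above them. It fell with age by -0.83 ± 0.21 (adjusted p = 0.00922), or -1.08 without replicate 1, with a strain difference of 0.08 ± 0.21. Manf, an ER protein that binds BiP and is also secreted, was at 59.8, 60.6 and 52.7 CPM in 22-week BPN/3J, 67.6, 118 and 113 CPM in 4-week BPH/2J and 49.6, 48.98 and 49.7 CPM in 22-week BPH/2J. All 3 groups were separate, with 22-week BPH/2J lowest and its 3 libraries within 1 CPM of each other. The fall with age was -1.01 ± 0.17 (adjusted p = 0.000981), or -1.22 without 4-week replicate 1, and the strain difference of -0.22 ± 0.17 was called in the fit without that library (-0.22 ± 0.06 (adjusted p = 0.0125)).

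**Figure D3:**
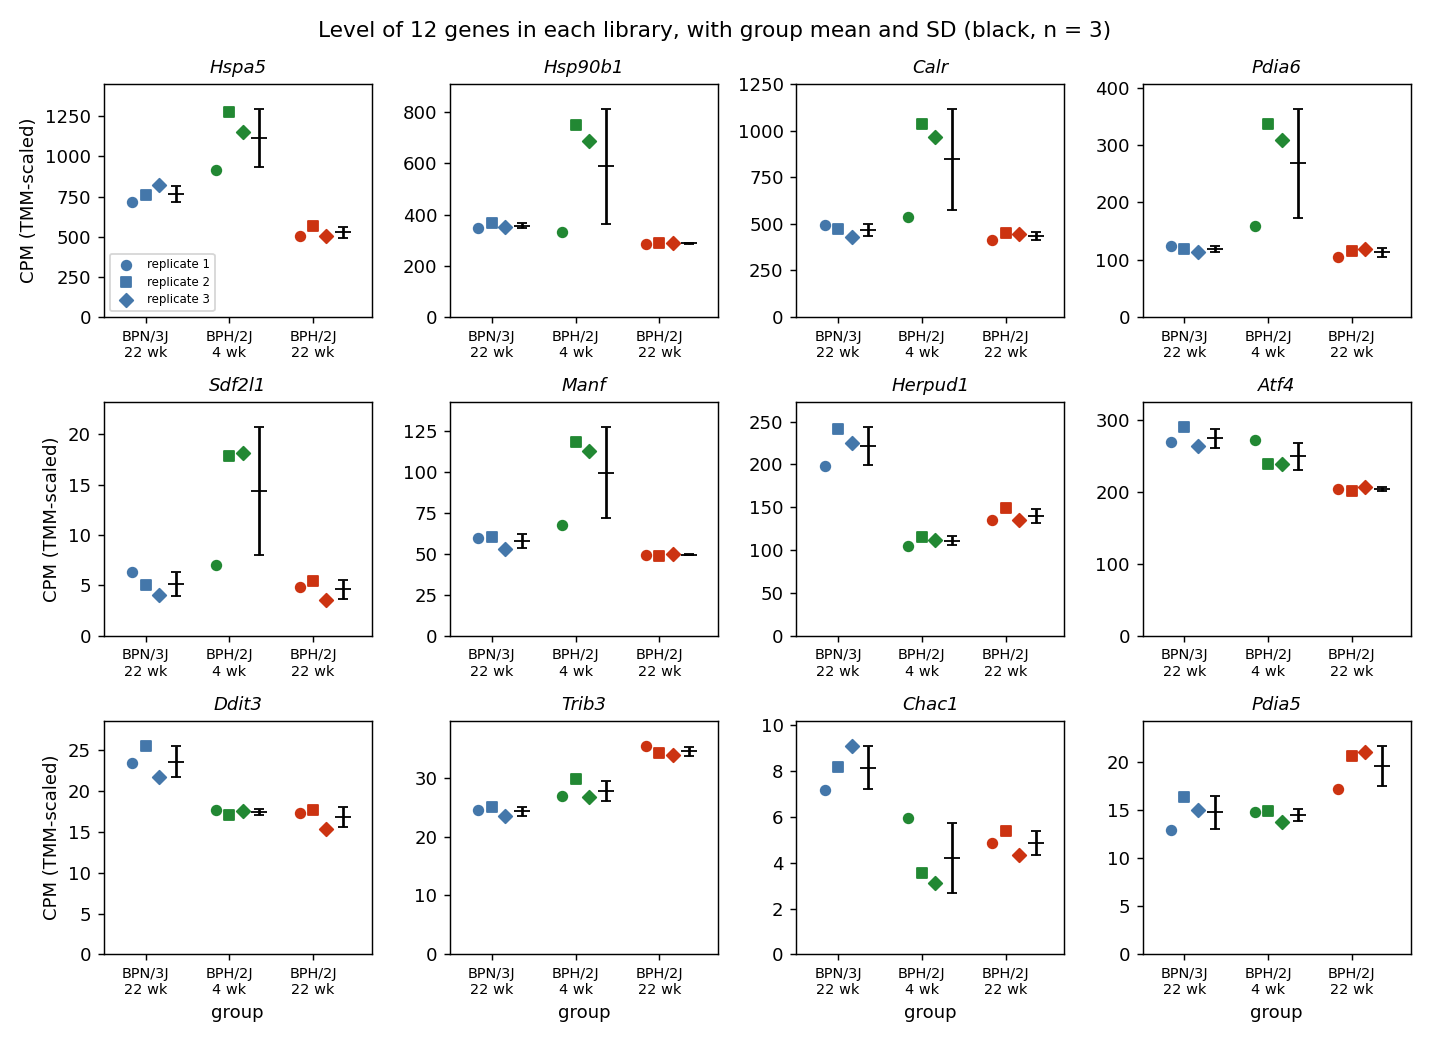
Each panel shows 1 gene, with TMM-scaled CPM on a linear axis from 0, 1 point per library (shape marks the replicate) and the group mean with its SD in black (n = 3). In the first 6 panels the 4-week mean is the highest and replicate 1 of 4-week BPH/2J is the lowest of its group. Herpud1, Ddit3 and Chac1 are highest in BPN/3J, and Trib3 and Pdia5 in 22-week BPH/2J.

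None of the 3 sensors passed in any comparison. Atf6 was at 77.3, 75.6 and 77.99 CPM in 22-week BPN/3J, 72.6, 72.3 and 69.1 CPM in 4-week BPH/2J and 76.2, 73.8 and 76.97 CPM in 22-week BPH/2J. Its 4-week libraries were the lowest by a small margin, and the 22-week groups overlapped. Its differences were -0.02 ± 0.05 between the strains and 0.08 ± 0.05 with age. Ern1 was at 30.8, 28.8 and 33.2 CPM in 22-week BPN/3J, 27.3, 32.7 and 33.1 CPM in 4-week BPH/2J and 28.8, 29.6 and 29.6 CPM in 22-week BPH/2J, with overlapping groups and differences of -0.08 ± 0.08 and -0.08 ± 0.08. It had the lowest level per length of the 6 sensors and transcription factors, at 3.78 ± 0.264 CPM per kilobase in BPN/3J. A filter of 1 CPM in 3 libraries brought Atf6 past the threshold in 4-week BPH/2J against BPN/3J (-0.13). Eif2ak3 was at 52.3, 55.5 and 55.5 CPM in 22-week BPN/3J, 50.96, 64.8 and 59.1 CPM in 4-week BPH/2J and 48.4, 53.5 and 52.5 CPM in 22-week BPH/2J, with overlapping groups and differences of -0.08 ± 0.08 and -0.18 ± 0.08. Without 4-week replicate 1 Eif2ak3 was called lower with age (-0.26 ± 0.07 (adjusted p = 0.00815)). It was also called higher in 4-week BPH/2J than in 22-week BPN/3J in that fit (0.19 ± 0.07 (adjusted p = 0.0346)).

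Xbp1, whose spliced message encodes a main activator of ER chaperones and degradation genes, was at 113, 118 and 116 CPM in 22-week BPN/3J, 111, 170.3 and 162 CPM in 4-week BPH/2J and 112, 109 and 96.8 CPM in 22-week BPH/2J. Replicate 1 of the 4-week group fell among the 22-week libraries, and the other two stood above all. The fall with age of -0.48 ± 0.13 (adjusted p = 0.0153) was lost without 4-week replicate 2 (-0.37) or 3 (-0.40) or 22-week BPH/2J replicate 3 (-0.41). It was -0.64 ± 0.07 (adjusted p = 3.38e-05) without replicate 1. The higher level against BPN/3J (0.35 ± 0.13 (adjusted p = 0.0443)) was lost without 4-week replicate 2 (0.24) or 3 (0.28) or any 1 of the 3 BPN/3J libraries (0.34 to 0.37). It was lost as well with median-of-ratios scaling (0.34), a filter of 1 CPM in 3 libraries (0.33), limma-voom (0.33) and a fit on only the groups compared (0.35), so that 10 of 15 alternatives did not call it.

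The PERK branch factors Atf4 and Ddit3 differed between the strains. Atf4, the transcription factor of amino acid and ER stress, was at 269, 289 and 264 CPM in 22-week BPN/3J, 271, 238 and 239 CPM in 4-week BPH/2J and 204, 201 and 206 CPM in 22-week BPH/2J. All 22-week BPH/2J libraries were lower than all others, and the other 2 groups overlapped. The strain difference was -0.43 ± 0.07 (adjusted p = 0.000803), a 1.34-fold lower level, and the age difference was -0.29 ± 0.07 (adjusted p = 0.00638). Against BPN/3J the 4-week level differed by -0.14 ± 0.07 (adjusted p = 0.111), and was -0.20 ± 0.06 (adjusted p = 0.0115) without 4-week replicate 1. Ddit3, which encodes the pro-apoptotic factor CHOP, was at 23.5, 25.5 and 21.8 CPM in 22-week BPN/3J, 17.6, 17.1 and 17.6 CPM in 4-week BPH/2J and 17.4, 17.7 and 15.4 CPM in 22-week BPH/2J. Both BPH/2J groups overlapped and lay below BPN/3J. Against 22-week BPN/3J, Ddit3 was lower by -0.49 ± 0.08 (adjusted p = 0.00136) in 22-week BPH/2J and by -0.44 ± 0.08 (adjusted p = 0.00138) in 4-week BPH/2J. Its age difference was -0.05 ± 0.08 (adjusted p = 0.655).

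ER-associated degradation returns misfolded proteins to the cytosol for destruction. Of its 6 genes, Herpud1 showed the clearest differences. Herpud1 encodes a membrane protein that gathers the degradation complex and is a known ER stress target. It was at 198, 242 and 225 CPM in 22-week BPN/3J, 105, 116 and 112 CPM in 4-week BPH/2J and 135, 149 and 135 CPM in 22-week BPH/2J. All 3 groups were separate, with BPN/3J highest and 4-week BPH/2J lowest. It was 2.00-fold lower in 4-week BPH/2J than in BPN/3J (-0.998 ± 0.08 (adjusted p = 3.90e-06)) and 1.59-fold lower in 22-week BPH/2J (-0.67 ± 0.08 (adjusted p = 0.000129)). Within BPH/2J it rose with age by 0.33 ± 0.08 (adjusted p = 0.00741). These were -0.96, -0.66 and 0.30 without 4-week replicate 1.

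The ubiquitin ligase complex of Sel1l and Syvn1 and the channel genes Derl1 and Derl2 moved little. Sel1l averaged 148 ± 0.666, 166 ± 24.2 and 154 ± 2.00 CPM in BPN/3J, 4-week BPH/2J and 22-week BPH/2J, and Syvn1 62.8 ± 3.54, 64.8 ± 13.5 and 53.9 ± 2.63 CPM. Neither was called in any comparison. In the fit without 4-week replicate 1, both were lower with age (-0.22 and -0.42) and higher at 4 weeks than in BPN/3J (0.28 and 0.20), and Syvn1 was lower in BPH/2J at 22 weeks (-0.22). Derl1 was higher in 22-week BPH/2J than in BPN/3J by 0.17 ± 0.06 (adjusted p = 0.0388). That call was lost without BPN/3J replicate 1 (0.16) or 3 (0.14) or any 1 of the 3 22-week BPH/2J libraries (0.14 to 0.19), and with median-of-ratios scaling (0.16). Derl2 passed in no comparison. Edem1, a lectin that picks out glycoproteins for degradation, behaved like the chaperones and fell with age by -0.77 ± 0.11 (adjusted p = 0.000336). It was at 88.5, 89.9 and 89.5 CPM in 22-week BPN/3J, 101, 140.4 and 133 CPM in 4-week BPH/2J and 73.00, 77.9 and 69.2 CPM in 22-week BPH/2J. All 3 groups were separate, and the lower level in BPH/2J at 22 weeks (-0.28 ± 0.11 (adjusted p = 0.0572)) passed in the fit without 4-week replicate 1 (-0.28 ± 0.05 (adjusted p = 0.002)).

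Translocation genes feed new proteins into the ER. Sec61a1, the channel subunit, was at 126, 129 and 125 CPM in 22-week BPN/3J, 186, 196 and 198 CPM in 4-week BPH/2J and 132, 136 and 138 CPM in 22-week BPH/2J, with all 4-week libraries above the rest and replicate 1 close to the other two. It fell with age by -0.51 ± 0.05 (adjusted p = 4.50e-05), the smallest adjusted p of the 38 genes in that comparison, and -0.54 without 4-week replicate 1. Sec61b, a small subunit, was at 23.1, 24.2 and 21.02 CPM in 22-week BPN/3J, 36.4, 30.1 and 34.5 CPM in 4-week BPH/2J and 25.2, 28.5 and 29.9 CPM in 22-week BPH/2J. The groups were separate, in the order 4-week BPH/2J, 22-week BPH/2J, BPN/3J. Its higher level in BPH/2J at 22 weeks (0.29 ± 0.09 (adjusted p = 0.0335)) was lost without BPN/3J replicate 1 (0.30) or 3 (0.24) or 22-week BPH/2J replicate 2 (0.28) or 3 (0.24). Its fall with age (-0.27 ± 0.09 (adjusted p = 0.0382)) was lost without 4-week replicate 1 (-0.21) or 3 (-0.25) or 22-week BPH/2J replicate 1 (-0.20) or 2 (-0.28), and with upper-quartile scaling (-0.25) or a fit on only the groups compared (-0.28).

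Ssr1, a subunit of the translocon-associated complex, was at 135, 137 and 122 CPM in 22-week BPN/3J, 177, 171 and 172 CPM in 4-week BPH/2J and 168, 159 and 170.5 CPM in 22-week BPH/2J. Both BPH/2J groups lay above 22-week BPN/3J, by 0.33 ± 0.06 (adjusted p = 0.00161) for 22-week BPH/2J and 0.40 ± 0.06 (adjusted p = 0.000252) for 4-week BPH/2J. Ssr1 did not pass with age (-0.07 ± 0.06). Serp1, a small translocon partner, was lower in 22-week BPH/2J than in either other group, at 76.6 ± 3.29 against 87.3 ± 2.63 CPM in BPN/3J and 87.8 ± 3.38 CPM at 4 weeks. The differences were -0.19 ± 0.06 (adjusted p = 0.023) and -0.20 ± 0.06 (adjusted p = 0.0174). The strain call of Serp1 was lost without BPN/3J replicate 1 (-0.18) or 2 (-0.17) or 22-week BPH/2J replicate 1 (-0.16) or 2 (-0.17), and the age call without 22-week BPH/2J replicate 1 (-0.17) or 2 (-0.18).

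The last 3 genes are known targets of ATF4, and each moved in its own way. Trib3, a pseudokinase that restrains ATF4 and CHOP, was at 24.5, 25.02 and 23.5 CPM in 22-week BPN/3J, 26.9, 29.7 and 26.7 CPM in 4-week BPH/2J and 35.4, 34.3 and 33.8 CPM in 22-week BPH/2J. All 22-week BPH/2J libraries were the highest, and the 4-week libraries lay between the 22-week groups. It was higher in 22-week BPH/2J by 0.50 ± 0.07 (adjusted p = 0.00024) against BPN/3J and by 0.31 ± 0.07 (adjusted p = 0.00357) against 4 weeks, while Atf4 was lower in both comparisons. The difference between 4-week BPH/2J and BPN/3J (0.19 ± 0.07 (adjusted p = 0.0309)) was lost without BPN/3J replicate 1 (0.20) or 3 (0.17) or 4-week replicate 2 (0.14), and in a fit on only the groups compared (0.19). Asns, asparagine synthetase, fell with age from 20.01 ± 2.79 to 13.1 ± 0.563 CPM (-0.62 ± 0.13 (adjusted p = 0.00369)). Its higher level at 4 weeks than in BPN/3J (0.37 ± 0.13 (adjusted p = 0.0333)) was lost without BPN/3J replicate 2 (0.36) or 3 (0.26) or 4-week replicate 2 (0.38) or 3 (0.25), and in a fit on only the groups compared (0.37).

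Chac1, an enzyme that breaks down glutathione, was the rarest of the list together with Sdf2l1. It was at 7.19, 8.17 and 9.09 CPM in 22-week BPN/3J, 5.94, 3.55 and 3.13 CPM in 4-week BPH/2J and 4.86, 5.37 and 4.35 CPM in 22-week BPH/2J. BPN/3J was above both BPH/2J groups, which overlapped, and 4-week replicate 1 was the highest of its group. Against 22-week BPN/3J, Chac1 was lower by -0.95 ± 0.22 (adjusted p = 0.00392) in 4-week BPH/2J and by -0.74 ± 0.22 (adjusted p = 0.0203) in 22-week BPH/2J. The strain call was lost without BPN/3J replicate 2 (-0.74) or 3 (-0.66) or 22-week BPH/2J replicate 1 (-0.74) or 3 (-0.66). In the fit without 4-week replicate 1, Chac1 was called higher with age (0.55 ± 0.16 (adjusted p = 0.0173)).

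Other genes of the same pathways were counted from lists fixed for this work. Their counts stand beside the shares of all tested genes: 21.1% lower and 19.9% higher with age, 18.2% and 19.8% between the strains, and 25.3% and 27.8% for 4-week BPH/2J against BPN/3J. Counts in parentheses are from the fit without 4-week replicate 1, in the same order. Of 39 further folding enzymes and lectins, 11 fell and 6 rose with age (11 and 11), and 10 were higher and 5 lower in BPH/2J at 22 weeks (16 and 7). Fkbp10, a collagen-directed proline isomerase, fell with age, with 15.3 ± 1.53 against 38.8 ± 3.46 CPM at 22 against 4 weeks in BPH/2J (-1.34 ± 0.10), and was higher in BPH/2J than in BPN/3J at 22 weeks (0.97 ± 0.11). Uggt2, which tags unfolded glycoproteins with glucose, was lower in BPH/2J at 22 weeks by -1.83 ± 0.15 and Fkbp14 by -1.35 ± 0.11, while Cnpy3 was higher (0.34 ± 0.07). With age Calu fell (-0.45 ± 0.05), and Cdnf, a relative of Manf, rose (1.22 ± 0.20), as did Selm (0.68 ± 0.12). Against BPN/3J, 15 were higher and 5 lower in 4-week BPH/2J (17 and 8), among them Fkbp10 (2.31 ± 0.11), Prkcsh (0.47 ± 0.05), Uggt2 (-2.16 ± 0.16) and Qsox1 (-0.75 ± 0.07).

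Of 29 further degradation genes, 7 fell and 7 rose with age (8 and 8), and 6 were higher and 5 lower in BPH/2J at 22 weeks (8 and 6). These were 24.1% each way with age, and 20.7% higher and 17.2% lower between the strains, close to the shares of all genes. Ngly1, which strips sugars from proteins bound for destruction, was higher in 22-week BPH/2J on both counts (0.38 ± 0.06 and 0.45 ± 0.06). Ube2g2, a ubiquitin-conjugating enzyme, was lower on both (-0.44 ± 0.09 and -0.52 ± 0.09). Faf2 (0.34 ± 0.07) and Ube2j1 (-0.24 ± 0.06) differed between the strains, and Rnf139 (0.33 ± 0.05) and Stt3b (-0.42 ± 0.07) with age. Stt3b was counted on this list, although it encodes a catalytic subunit of oligosaccharyltransferase. Against BPN/3J, 7 were higher and 9 lower at 4 weeks (7 and 8), led by Stt3b (0.52 ± 0.07), Vcp (0.42 ± 0.06), March6 (-0.37 ± 0.06) and Herpud2 (-0.28 ± 0.07).

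Of 30 further regulators of the response, 9 fell and 4 rose with age (11 and 4), and 6 were higher and 5 lower in BPH/2J at 22 weeks (8 and 6). The strain counts were again close to the shares of all genes, with 16.7% of the list lower. Ppp1r15a, which reverses the translation block set by PERK, was lower in BPH/2J at 22 weeks, at 484 ± 62.6 against 894 ± 142 CPM (-0.88 ± 0.17). Bcl2l11 was lower too (-0.42 ± 0.07), and Nck1 (0.57 ± 0.08) and Mbtps2 (0.26 ± 0.06), the latter a protease that releases ATF6, were higher. With age Bak1 (-0.73 ± 0.06) and Eif2s1 (-0.57 ± 0.06), the target of PERK, fell, and Ddrgk1 (0.73 ± 0.09) and Casp12 (1.07 ± 0.15) rose. Against BPN/3J, 12 were higher and 8 lower at 4 weeks (12 and 8), with Bak1 at 0.68 ± 0.06, Eif2s1 at 0.69 ± 0.06, Ddrgk1 at -0.69 ± 0.09 and Bcl2l11 at -0.44 ± 0.07.

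Of 29 further ATF4-type targets, 19 fell and 3 rose with age (20 and 4), and 5 were higher and 8 lower in BPH/2J at 22 weeks (7 and 11). Ddit4, an inhibitor of mTORC1, was -1.56 ± 0.12 lower in BPH/2J at 22 weeks, at 238 ± 13.8 against 705 ± 48.00 CPM, and rose with age (0.94 ± 0.12). Mthfd2, a mitochondrial folate enzyme, fell with age by -2.05 ± 0.15, and the amino acid transporter Slc7a1 by -0.80 ± 0.06. Slc3a2 rose (0.70 ± 0.08). Between the strains Gdf15 was lower (-1.08 ± 0.16), and Aars (0.41 ± 0.07) and Shmt2 (0.45 ± 0.08) were higher in BPH/2J. Against BPN/3J, 14 were higher and 7 lower at 4 weeks (13 and 6), with Slc7a1 at 0.83 ± 0.06, Mthfd2 at 2.13 ± 0.15, Ddit4 at -2.50 ± 0.12 and Slc3a2 at -1.004 ± 0.08.

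The entry and exit routes of the ER were counted in the same way. Of 23 further targeting and translocation genes, 5 fell and 3 rose with age (6 and 3), and 4 were higher and 1 lower in BPH/2J at 22 weeks (7 and 1). Ssr2, the partner of Ssr1, fell with age (-0.67 ± 0.06), as did Tram2 (-0.50 ± 0.09), and Sec62 (0.37 ± 0.06) and Sec63 (0.31 ± 0.06) rose. Between the strains Spcs2 (0.44 ± 0.08) and Sec11a (0.27 ± 0.07), of the signal peptidase, were higher in BPH/2J and Srprb (-0.44 ± 0.08) was lower. Against BPN/3J, 10 were higher and 2 lower at 4 weeks (8 and 3), with Ssr2 at 0.82 ± 0.06, Sec11a at 0.47 ± 0.07, Sec62 at -0.51 ± 0.06 and Sec63 at -0.24 ± 0.06.

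Oligosaccharyltransferase attaches sugar chains as proteins enter. Of the 11 genes listed for it, which left out Stt3b, 5 fell with age and none rose (4 and 0). Stt3a fell by -0.26 ± 0.05 and Ostc by -0.49 ± 0.09, and at 22 weeks 4 were higher in BPH/2J than in BPN/3J and none lower (6 and 0), including Tusc3 (0.25 ± 0.07) and Stt3a (0.19 ± 0.05). At 4 weeks 8 were higher than in BPN/3J and none lower (8 and 0), including Stt3a (0.45 ± 0.05) and Ostc (0.76 ± 0.09). Of 32 genes of transport from ER to Golgi, 18 fell and 2 rose with age (19 and 3), led by the coat proteins Sec24d (-0.81 ± 0.07) and Sec23a (-0.48 ± 0.05), with Mcfd2 (0.27 ± 0.06) and Ergic3 (0.24 ± 0.08) higher. At 22 weeks 11 were higher and 4 lower in BPH/2J (11 and 5), led by Kdelr2 (0.30 ± 0.07), Tmed3 (0.31 ± 0.07), Sec24b (-0.47 ± 0.07) and Sec24a (-0.40 ± 0.07). At 4 weeks 20 were higher than in BPN/3J and none lower (21 and 0), including Sec24d (0.77 ± 0.07) and Kdelr2 (0.68 ± 0.07).

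Secreted matrix genes, which supply cargo to the ER, showed the same direction with age. Of 24 such genes 16 fell and 2 rose (16 and 2). Their median log2 difference was -0.89, against -0.27 for the 38 folding genes and 0.0050 for all genes. Tnc fell by -3.45 ± 0.28 and Nid2 by -1.45 ± 0.13, while Vwf (0.86 ± 0.17) and Mmrn2 (0.30 ± 0.08) rose. At 22 weeks 10 were higher in BPH/2J than in BPN/3J and none lower (11 and 0), led by Sparc (0.96 ± 0.11) and Igfbp7 (0.56 ± 0.08). At 4 weeks 17 were higher than in BPN/3J and 1 was lower (17 and 2), led by Sparc (1.94 ± 0.12) and the collagen chain gene Col15a1 (2.96 ± 0.21), with Vwf the lower one (-0.55 ± 0.17). Unlike the folding genes, the matrix list was as high in 4-week replicate 1 as in the other two, with mean log2 deviations from the 9-library mean of 0.66, 0.67 and 0.61. The 38 folding genes stood at 0.016, 0.35 and 0.30 in those libraries. They were at -0.066, -0.050 and -0.14 in BPN/3J and at -0.16, -0.12 and -0.14 in 22-week BPH/2J.

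Cytosolic heat shock chaperones, the counterpart of the ER chaperones outside the ER, followed another order. Their mean log2 deviations were 0.025, 0.52 and 0.64 in BPN/3J, -0.35, 0.43 and 0.28 in 4-week BPH/2J and -0.55, -0.60 and -0.40 in 22-week BPH/2J. Thus 4-week replicate 1 was the lowest of its group here as well, and 22-week BPH/2J was the lowest group. Of 21 genes 13 were lower and none higher in BPH/2J at 22 weeks (19 and 0 without 4-week replicate 1), led by Dnaja1 (-1.49 ± 0.16) and Bag3 (-1.26 ± 0.17). With age 12 fell and none rose (15 and 0), led by Hspa4 (-0.48 ± 0.08) and Stip1 (-2.14 ± 0.40). Against BPN/3J 2 were higher at 4 weeks, Hspa4 (0.30 ± 0.08) and St13 (0.61 ± 0.21), and 7 were lower, led by Bag3 (-1.33 ± 0.17) and Hspa1a (-1.17 ± 0.19). In the fit without 4-week replicate 1, 8 were higher and 7 lower there, and the median log2 difference of the list went from -0.061 to 0.077.

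**Figure D4:**
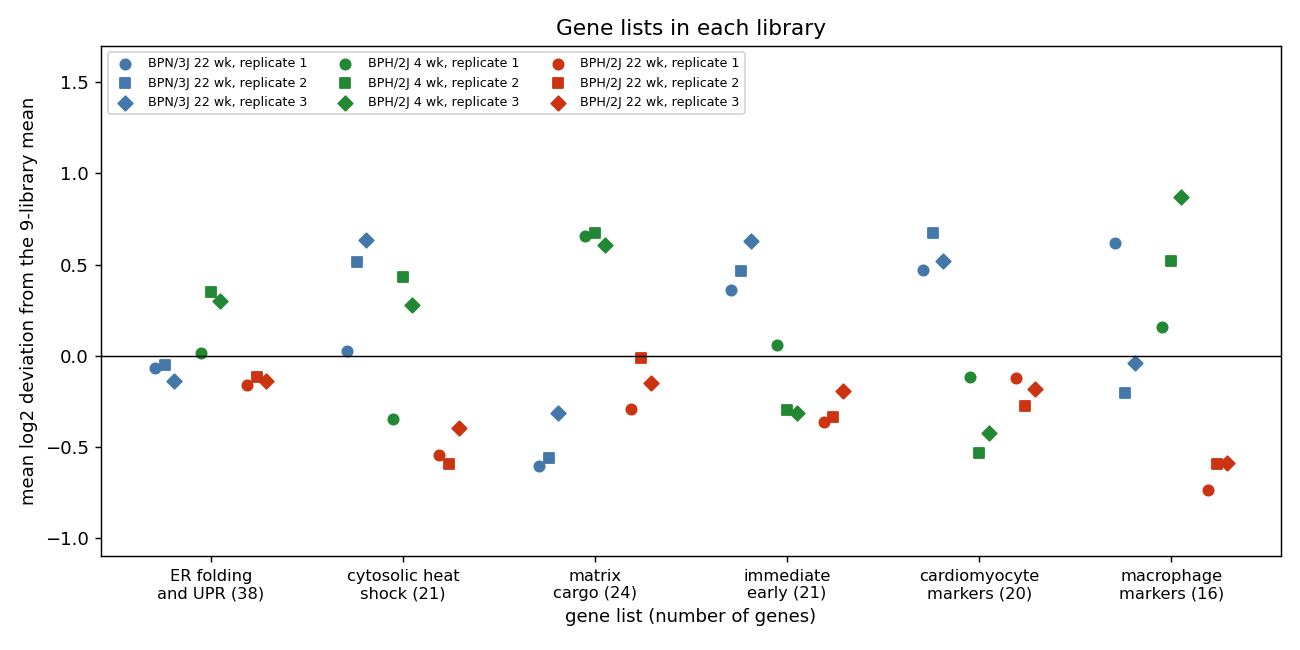
Each point is a library and shows the mean over a gene list of the log2 of CPM plus 0.5, minus the mean of the 9 libraries. Colour marks the group and shape the replicate, and the number of genes is given below each list. The ER list is highest in 4-week replicates 2 and 3 (0.35 and 0.30), with 4-week replicate 1 at 0.016, and in the matrix list all 3 young libraries are close together.

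Markers of other cell types also moved between the groups. Over all tested genes, 21.1% were called lower and 19.9% higher with age, and 18.2% lower and 19.8% higher between the strains. For 4-week BPH/2J against BPN/3J these shares were 25.3% and 27.8%. Without 4-week replicate 1 they were 23.6% and 23.8%, 21.8% and 23.9%, and 27.0% and 28.7%. Macrophage and monocyte markers summed to 489 to 929 CPM at 4 weeks in BPH/2J, 251.2 to 290.4 CPM at 22 weeks and 419 to 722 CPM in BPN/3J, and 14 of 16 fell with age (15 without 4-week replicate 1). Plasma cells are rich in ER chaperones, and the B and plasma cell markers summed to 127 to 151, 110 to 197 and 102 to 109 CPM in the same groups. Of these 12 markers 1 fell and 2 rose with age, but without 4-week replicate 1 there were 1 and 9, with a median log2 difference of 0.98 in place of 0.66. In the fit on all 9 libraries the 1 that fell was Prdm1 (-0.63 ± 0.11), the most abundant of the list. Pax5 (1.04 ± 0.23) and Igj (2.22 ± 0.72, at 0.088 CPM at 4 weeks) were the 2 that rose. Cardiomyocyte markers summed to 1400 to 1660 CPM in BPN/3J, 894 to 1040 CPM in 4-week BPH/2J and 872 to 1010 CPM in 22-week BPH/2J, and 15 of 20 were lower in 22-week BPH/2J than in BPN/3J (17 of 21 without 4-week replicate 1). Fibroblast markers summed to 1290 to 1370, 746 to 1140 and 757 to 879 CPM in those groups. The most abundant of them, Gsn, was at 702.5 ± 22.03, 174.3 ± 40.99 and 289.9 ± 41.49 CPM. As a set the 14 fibroblast markers were split. In BPH/2J at 22 weeks 3 were higher and 4 lower than in BPN/3J (3 and 6 without 4-week replicate 1). In 4-week BPH/2J 6 were higher and 6 lower than in 22-week BPN/3J (6 and 8), and with age 5 fell and 6 rose (5 and 8). Of 21 immediate early genes, 18 were lower in BPH/2J at 22 weeks (20 without 4-week replicate 1), among them Csrnp1 (-2.06 ± 0.09) and Dusp1 (-0.98 ± 0.08), and 3 fell with age, including Fosl2 (-0.43 ± 0.07) and Maff (-0.87 ± 0.21), and none rose. In the fit without 4-week replicate 1, 3 fell and 5 rose with age, and their median log2 difference turned from -0.17 to 0.044. At 4 weeks 16 were lower than in BPN/3J (18 without that library), including Csrnp1 (-1.95 ± 0.09) and Nr4a3 (-1.03 ± 0.11). The most abundant markers were Cdh5 for endothelium (2405 ± 41.9, 3181 ± 94.1 and 3049 ± 202 CPM in BPN/3J, 4-week BPH/2J and 22-week BPH/2J), Lyz2 for macrophages (146 ± 38.5, 202 ± 69.5 and 92.2 ± 14.04 CPM) and Prdm1 for B and plasma cells (15.2 ± 0.946, 70.3 ± 12.4 and 45.5 ± 2.25 CPM). The 15 endothelial markers did not all follow Cdh5. In BPH/2J at 22 weeks 7 were higher and 3 lower than in BPN/3J (8 and 5 without 4-week replicate 1). With age 5 rose and 2 fell (6 and 2), and at 4 weeks 4 were higher and 3 lower than in BPN/3J (4 and 3). Of the 16 macrophage and monocyte markers, 10 were lower and 1 higher in BPH/2J at 22 weeks (11 and 1 without 4-week replicate 1). Pericyte and smooth muscle markers summed to 1490 to 2050 CPM per library. In both fits 1 of these 12 was higher and 2 lower between the strains, and 2 fell with age. Of 12 T and NK cell markers 8 rose with age and none fell (7 and 0). Of 5 red blood cell markers 4 were lower in BPH/2J at 22 weeks and none higher (5 and 0). No marker of any list was at 0 in every library. The part of these cell types and signals in the ER gene differences was not tested.

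In the authors' deposited table, at a false discovery rate of 0.05, 19 of the 38 genes were lower and 3 higher with age. Between the strains at 22 weeks the authors' deposited table had 5 higher and 5 lower. For 4-week BPH/2J against BPN/3J the authors' deposited table had 21 higher and 4 lower. Every one of those calls was also made here in the same direction.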

How the data were processed

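Mouse cardiac endothelium was profiled by RNA sequencing in 9 libraries. Per the labels, cells were captured with microbeads and polyA RNA was read as single reads. Build mm9, TopHat2 2.0.13 with Bowtie2, featureCounts (Subread), edgeR, FastQC and CASAVA 1.8.2 appear in the submitters' processing notes. Not given in the sources used here were strandedness, the annotation release and how reads shared by overlapping, antisense or near-identical genes were assigned. The authors deposited 1 table with raw counts per gene, CPM, gene lengths, and log2 fold changes with p-values of their own comparisons. The deposited CPM equal count over column total, and the lengths served for CPM per kilobase. No gene in the table had fewer than 10 counts in total. Symbols that had become dates (21) were restored through their identifiers, and 854 genes have none.

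From the counts, edgeR 4.0.16 fitted 1 quasi-likelihood model by group (legacy setting, filterByExpr, TMM, all 9 libraries), with 3 two-sided contrasts, adjusted by Benjamini-Hochberg over 15277 genes with a threshold of 0.05. After ± stands the SE of a log2 difference (its size over the square root of F) or the SD of a mean (n = 3). Alternatives used DESeq2 1.42.0, limma 3.58.1 (voom), other scalings, filters and sample sets, and each library left out. R 4.3.3, Python 3.11.15, pandas 2.3.3 and matplotlib 3.10.9 were used, and the fit was tested on simulated data. No 2 libraries were identical.

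The 38 genes and all lists were chosen with earlier results of these data known. Values in every library were given for the 5 largest called rises and falls of each contrast, the sensors and transcription factors and the most abundant genes per length. Other lists contributed the 2 called genes with the smallest adjusted p per contrast and direction. For markers the most abundant gene was given, for the endothelium, fibroblast, macrophage, and B and plasma cell lists. Pax5 and Igj were named as well, as the B and plasma cell markers that rose with age. Calr, Canx, Xbp1, Edem1, P4hb and Sec61a1 were added for their roles. The fit without 4-week BPH/2J replicate 1 was set beside the results after seeing the data.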

Additional observations from a re-analysis of the deposited data

How the results depend on the processing

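Counts of called genes stayed within 1.5 times of the reported values under the other scalings, filters, tools and sample sets run, apart from those named here. A fit on only the groups compared called 12 genes lower between the strains. At an adjusted p of 0.01, 2 were higher and 4 lower between the strains, and 3 were lower in 4-week BPH/2J against BPN/3J. With each library left out, the strain comparison gave 2 to 10 higher and 4 to 12 lower, with a median log2 difference of -0.0757 to -0.0116. The age comparison gave 3 to 5 higher, and 3 to 6 genes were lower in 4-week BPH/2J against BPN/3J. The strain fit without 4-week replicate 1 was added after seeing the data, and the cause of these changes was not tested. Replicate numbers are shared by the groups, but libraries of equal number did not deviate together (residual correlations -0.161 to 0.077, none of 9 pairs over 0.1). With the number as a replicate block, 4 genes were higher and 7 lower between the strains, 3 and 20 with age, and 20 and 5 in the remaining comparison. The calls not made under the block were Derl1 and Sec61b between the strains, Ppib and Sec61b with age, and Xbp1 and Asns in the remaining comparison. For single genes no alternative reversed a called direction. Depth limits precision most for Chac1 and Sdf2l1, the rarest of the genes.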
